A study of Mus musculus with 21 samples.

Results

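The expression of 45 genes that mark macrophages and other myeloid cells was described in whole kidneys of mice, with control, adenine-fed and adenine-fed, iodomethylcholine-treated animals set beside each other. The genes were a list of symbols, matched by name to the Ensembl gene identifiers of the deposited tables, and all 45 were among the 20634 genes that both count tables held (21004 genes in the table of raw counts and 21287 in that of normalized counts). They were read in 5 roles: 15 lineage markers shared by most macrophages, the growth factor Csf1 with its receptor Csf1r, 9 markers of tissue-resident cells, 13 markers of activated or scavenging cells, and 6 Fc receptors and signalling adaptors. A gene can belong to more than 1 of these states, so the roles sort the list and do not define cells.

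All mice were female apolipoprotein E knockout (apoE KO) animals on the C57BL/6J background, a strain with high plasma cholesterol, and the knockout was shared by the controls. They were studied at 18 weeks of age after 14 weeks on diet, begun at 4 weeks of age: the Con group (5 mice) ate chow, the Ade group (6 mice) chow with adenine, a diet that damages the renal tubules, and the Ade + IMC group (6 mice) the adenine diet with iodomethylcholine (IMC), a choline analog that blocks the making of trimethylamine by gut bacteria. The question the comparisons address is whether the kidney damage of adenine feeding, and the response to it, differ when trimethylamine N-oxide (TMAO), the product of trimethylamine in the liver, is lowered. The labels also hold 4 Con + IMC mice, not analysed here, so that an action of IMC without adenine could not be read. RNA came from the kidney as a whole, so every cell type contributed.

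Macrophages sit between the tubules and capillaries of the healthy kidney, some seeded before birth and some replaced from blood monocytes, and they depend on signalling through the receptor encoded by Csf1r. In an injured kidney monocytes enter from the blood and, with the resident cells, take up debris, present antigen and release mediators of inflammation and scarring. Their marker genes encode scavenger receptors, lectins, lysosomal proteins and receptors for the Fc part of antibodies, and many of these are switched on in the lineage by the transcription factor PU.1, the product of Spi1.

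Total counts were 7716126 to 11680809 per mouse in the Con group, 5444833 to 7673215 in the Ade group and 5728589 to 8305968 in the Ade + IMC group. Levels are given in CPM, which scales the count of a gene to a common library size, here after TMM scaling over the 17 mice. In the smallest Con, Ade and Ade + IMC libraries 3 counts correspond to 0.389, 0.551 and 0.524 CPM before scaling, a limit that covers counting error only. The 8 proximal tubule markers were present in each library (mean log2 CPM of 9.82 to 10.25 in Con mice, 7.24 to 8.91 in Ade mice and 7.78 to 8.69 in Ade + IMC mice). The mice carry numbers with a first digit of 2, 3 or 4 whose meaning is not given in the sources used here, and it served as a block in some alternatives.

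Stretches before the starts of member genes were read from RefSeq (GRCm38.p6). Whether they bear on the rise of 39 members in the Ade group, given further below, was not tested. A promoter was listed for 32 of the 45 members. The string GAGGAA, the core of the sequence bound by PU.1, was in the 250 bases before the start, on either strand, in 15 of the 32 (46.9%), against 25.9% of the 27025 genes of the same table. The 100 bases before the start are shown 5′ to 3′ on the coding strand of 6 members described one by one further below and of Laptm5, a lysosomal membrane protein of blood-derived cells, with each GAGGAA or its reverse complement TTCCTC in capitals. Only stretches that hold the string are shown, so its presence in each is by choice. Lyz2 was among the members without it in the 250 bases. RefSeq's starts can differ from those of the GENCODE annotation used for the other positions. The stretches lie at chr3:96293970-96294069 (minus strand) for Fcgr1, chr1:171059404-171059503 (minus) for Fcgr3, chr1:171018826-171018925 (plus) for Fcgr4, chr7:128062540-128062639 (plus) for Itgam, chr6:129472780-129472879 (minus) for Clec7a, chr17:48346301-48346400 (plus) for Trem2 and chr4:130913216-130913315 (plus) for Laptm5.
Fcgr1: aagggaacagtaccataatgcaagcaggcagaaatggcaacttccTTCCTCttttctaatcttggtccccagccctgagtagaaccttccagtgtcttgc
Fcgr3: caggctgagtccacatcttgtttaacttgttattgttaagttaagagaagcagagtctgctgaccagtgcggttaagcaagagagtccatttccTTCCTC
Fcgr4: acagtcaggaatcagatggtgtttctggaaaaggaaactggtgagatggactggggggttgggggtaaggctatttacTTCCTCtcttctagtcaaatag
Itgam: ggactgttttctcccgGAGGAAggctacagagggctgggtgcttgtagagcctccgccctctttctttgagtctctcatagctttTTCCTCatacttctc
Clec7a: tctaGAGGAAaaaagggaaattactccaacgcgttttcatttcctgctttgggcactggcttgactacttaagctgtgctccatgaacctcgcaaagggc
Trem2: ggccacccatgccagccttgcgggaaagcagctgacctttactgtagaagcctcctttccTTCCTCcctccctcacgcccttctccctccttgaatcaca
Laptm5: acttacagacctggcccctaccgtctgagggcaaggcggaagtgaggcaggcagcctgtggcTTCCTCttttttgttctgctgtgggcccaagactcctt

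The string lay closest to the listed start in Fcgr3, where it took bases 6 to 1 before it, and Itgam held it at 2 places, 84 to 79 and 15 to 10 bases before. In all, 10 strings were searched on both strands, chosen with these data known, and several overlap GAGGAA. The longer strings AGAGGAAG, AAAGAGGAA and GAGGAAGT were in 21.9%, 12.5% and 6.25% of the 32 members against 4.27%, 1.35% and 2.79% of all genes. The ETS strings AGGAAGT and GGAAGTG were each in 28.1% of the members (8.8% and 9.77% of all genes), and GGGAAGTG was in 9.38% (2.3%). TGACTCA, bound by AP-1, was in 12.5% (5.16%), TATAAA, the TATA box, in 12.5% (14.3%), and TCACGTG, an E-box, in 0.0% (3.58%). A match is a string of letters in this window and was not tested as a bound site.

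The first comparison, of the Ade and Con groups, asks which macrophage genes differ with adenine feeding. Of the 45 members, 40 had counts high enough to be tested, and 39 of these 40 were higher in the Ade group at an adjusted p below 0.1 (edgeR's quasi-likelihood test, Benjamini-Hochberg adjustment over 14612 genes), with 0 lower. Over all tested genes 35.1% were called higher and 32.2% lower. The median log2 fold change of the 40 members was 3.31, about 9.92-fold, against 0.02 over all tested genes. Of the 40, 11 passed the filter on low counts only through the Ade group, in which they were high, and so had to differ. Among the 29 that also passed it in the Con mice, 28 were called higher, with a median log2 fold change of 3.22. Every Ade mouse was above every Con mouse for 38 of the 45 members, which held for 22.4% of all tested genes. In bulk kidney RNA, fewer or more cells of a type and less or more RNA per cell cannot be told apart.

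**Figure D1:**
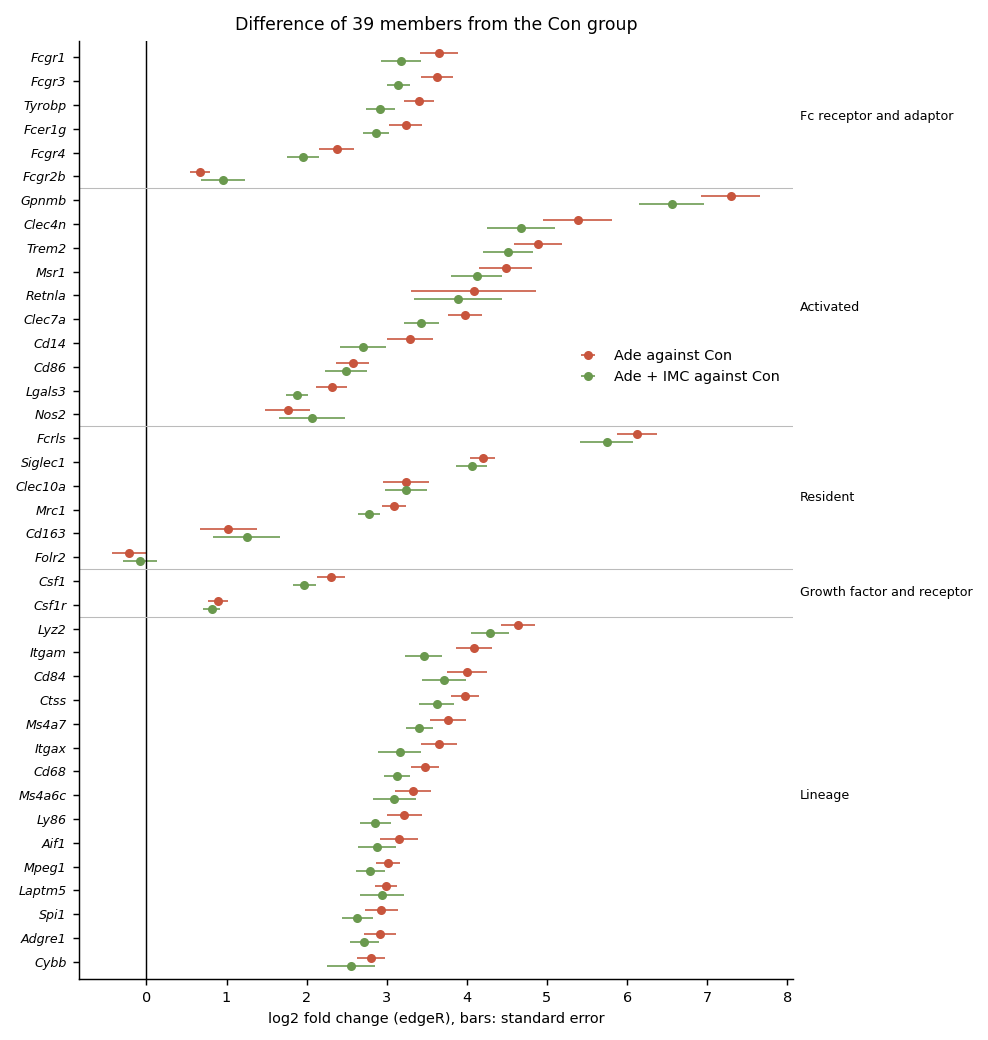
Fitted log2 fold change against the Con group (x axis) of 39 of the 40 members tested between the Ade and Con groups (y axis, by role), for the Ade group (red) and the Ade + IMC group (green), with bars for the standard error. All members but Folr2 lie to the right of 0, Gpnmb lies furthest at 7.29 in the Ade group, and Csf1r, Fcgr2b and Cd163 lie near 1.

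The 15 lineage markers were all called higher, with log2 fold changes of 2.80 (Cybb, a subunit of the phagocyte NADPH oxidase) to 4.64 (Lyz2, lysozyme), and for each of them every Ade mouse was above every Con mouse. Of these, 14 also passed the filter on low counts in the Con mice, and Cd84 passed it only through the Ade group. Lyz2 was at 49.96, 37.1, 31.8, 36.8 and 26.0 CPM in the 5 Con mice and at 596, 947 and 1067 CPM in the lowest, median and highest Ade mouse (log2 fold change 4.64 ± 0.21 standard error, adjusted p = 4.84e-09). The lowest Ade mouse was at 11.9 times the highest Con mouse. Lyz2 lies at chr10:117277331-117282321 on the minus strand (GRCm38, as are all positions here). Since 15.4% of the 50-base words of the Lyz2 transcripts also occur in Lyz1, part of its count could belong to that gene.

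Itgam, the CD11b integrin chain by which myeloid cells adhere and take up complement-coated particles, was at 4.24, 3.32, 3.66, 5.07 and 2.74 CPM in Con mice and at 36.5, 65.0 and 83.6 CPM (lowest, median, highest) in Ade mice, with a log2 fold change of 4.08 ± 0.22 (adjusted p = 1.46e-08). The annotation places 68.7% of its exonic bases under a second gene on the same strand, Gm49368, so that its level depends on how shared reads were assigned. Cd84, a self-binding adhesion receptor of leukocytes, was at 2.42, 2.74, 1.22, 1.95 and 1.70 CPM in Con mice against 20.02, 31.4 and 41.6 CPM in Ade mice (4.00 ± 0.25, adjusted p = 4.19e-08). Ctss, the lysosomal protease cathepsin S that trims the invariant chain during antigen presentation, was at 27.1, 31.0, 22.5, 32.7 and 29.7 CPM in Con mice and at 323, 439 and 564 CPM in Ade mice (3.97 ± 0.18, adjusted p = 3.11e-09). For these 3 genes the Con and Ade values were separate, and the lowest Ade value of each came from mouse 407. The call of Cd84 carries little weight, since it passed the filter only through the Ade group.

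The other 11 lineage markers had log2 fold changes from 2.80 to 3.76. Among them were Adgre1, the F4/80 antigen that defines mouse macrophages (2.92 ± 0.20, 6.37 to 10.2 CPM in Con mice and 42.4 to 91.6 CPM in Ade mice), Cd68, a lysosomal membrane glycoprotein (3.48 ± 0.18), and Spi1 itself (2.93 ± 0.21). Mpeg1, a pore-forming protein of the phagosome, was at 3.02 ± 0.15, and Itgax, the CD11c chain also used to mark dendritic cells, at 3.65 ± 0.23.

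Csf1, the growth factor on which macrophages depend, was at 15.9, 26.9, 21.3, 21.0 and 20.9 CPM in Con mice and at 67.5, 98.1 and 131 CPM in the lowest, median and highest Ade mouse (log2 fold change 2.304 ± 0.18, adjusted p = 2.07e-07). Its receptor Csf1r was at 116, 124, 126, 90.7 and 119.9 CPM in Con mice and at 169, 216 and 249 CPM in Ade mice, a rise of only 1.86-fold (log2 fold change 0.90 ± 0.13, adjusted p = 3.97e-05). Neither gene's groups overlapped. Per kilobase of exon, the median Csf1r level in Con mice, 20.8 CPM, was more than that of Adgre1 (2.54), Cd68 (5.92) or Cybb (3.28) and near that of Ctss (21.8), whereas in Ade mice it was 37.3 CPM against 323 for Ctss. Exons of Hmgxb3 on the other strand cover 15.1% of the exonic bases of Csf1r, and the use of strand in counting is not given in the sources used here.

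**Figure D2:**
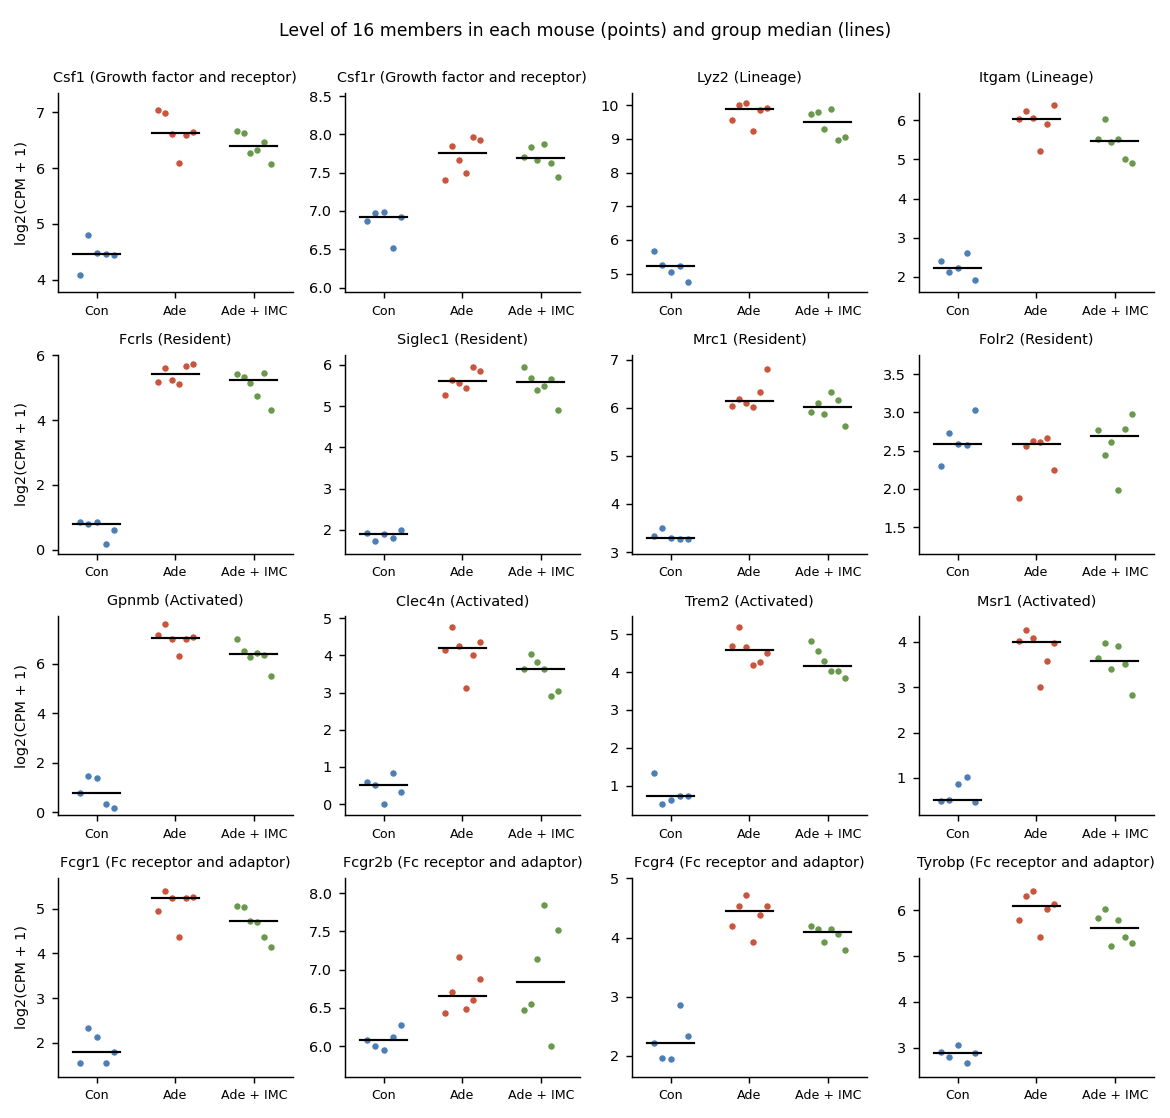
log2(CPM + 1) (y axes, each with its own range of values) of 16 members in each mouse of the Con (blue), Ade (red) and Ade + IMC (green) groups (x axes), with a line at each group's median. The Con mice lie apart below the adenine-fed mice in 14 of the 16 panels, while in that of Folr2 the 3 groups overlap and in that of Fcgr2b 1 Ade + IMC mouse lies among the Con mice.

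The resident markers split. Of 9, 6 were tested and 5 called higher, and 3 had too few counts. Of the 5 called, 3 (Fcrls, Cd163 and Clec10a) passed the filter only through the Ade group. Fcrls, an Fc receptor-like scavenger of resident macrophages best known from microglia, rose the most, from 0.807, 0.722, 0.813, 0.13 and 0.523 CPM in Con mice (1 to 8 counts) to 33.7, 42.6 and 51.9 CPM in the lowest, median and highest Ade mouse (log2 fold change 6.12 ± 0.25, adjusted p = 1.94e-09). Siglec1, a sialic acid-binding receptor of macrophages, was at 2.83, 2.31, 2.71, 2.47 and 3.01 CPM in Con mice and at 37.2, 47.4 and 60.5 CPM in Ade mice (4.20 ± 0.15, adjusted p = 9.63e-10). Both genes were low in Con mice, with the lowest Ade mouse at 41.5 times (Fcrls) and 12.4 times (Siglec1) the highest Con mouse. Fcrls lies at chr3:87250758-87263738 and Siglec1 at chr2:131069220-131086765, both on the minus strand.

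Clec10a, a galactose-binding lectin of macrophages and dendritic cells, was at 1.21, 1.59, 1.35, 0.649 and 1.18 CPM in Con mice and at 5.85, 12.1 and 14.5 CPM in Ade mice (3.24 ± 0.29, adjusted p = 8.34e-07). Mrc1, the mannose receptor CD206, was at 9.08, 10.3, 8.80, 8.70 and 8.62 CPM in Con mice and at 63.7, 69.6 and 111 CPM in Ade mice (3.09 ± 0.15, adjusted p = 7.70e-09). For both, the Con and Ade values did not overlap. Cd163, the haemoglobin scavenger receptor, changed less and from few reads: 0.706, 0.866, 0.948, 0.39 and 2.09 CPM in Con mice against 1.42, 1.83 and 2.67 CPM in Ade mice (1.02 ± 0.35, adjusted p = 0.022). A single Con mouse, 403, lay within the Ade values of Cd163.

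Folr2, a folate receptor of resident macrophages, was the tested member not called (log2 fold change -0.22 ± 0.21, adjusted p = 0.384). It was at 3.94, 5.63, 5.01, 4.94 and 7.19 CPM in Con mice and at 2.67, 5.01 and 5.37 CPM in Ade mice, and the groups overlapped. Of its exonic bases, 63.1% lie under Gm10602 on the other strand. Lyve1, a hyaluronan receptor of resident macrophages beside vessels and of lymphatic endothelium, had 8, 1, 10, 3 and 1 counts in Con mice and 4 to 11 counts in Ade mice, too few for the test. Vsig4, a complement receptor of resident macrophages, had 0 to 1 counts in Con mice and 0 to 2 in Ade mice, and Timd4, a phosphatidylserine receptor, 0 to 2 and 0 to 5. A change of these last 2 genes was not detectable at this depth.

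Of 13 activated markers 11 were tested, and all 11 were called higher. Of these, 7 passed the filter only through the Ade group, among them Gpnmb, Clec4n, Trem2, Msr1, Nos2 and Retnla, so that their count carries little weight. The 4 that also passed it in the Con mice were all called higher, with a median log2 fold change of 2.93. Gpnmb, a glycoprotein of lysosomes in lipid-laden and debris-clearing macrophages, showed the largest change of the 40 members. The gene lies at chr6:49036546-49070929 on the plus strand. It was at 0.706, 1.73, 1.63, 0.26 and 0.131 CPM in Con mice (1 to 12 counts) and at 79.9, 131 and 198 CPM in the lowest, median and highest Ade mouse (7.29 ± 0.37, adjusted p = 8.87e-09), with the lowest Ade mouse at 46.1 times the highest Con mouse. Clec4n, the dectin-2 receptor for fungal mannans, was at 0.505, 0.433, 0, 0.779 and 0.261 CPM in Con mice and at 7.71, 17.3 and 26.0 CPM in Ade mice (5.38 ± 0.43, adjusted p = 2.98e-07). The fitted folds of these 2 genes rest on Con libraries with at most 12 counts and are less certain in size than in direction.

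Trem2, a lipid-sensing receptor that signals through the adaptor Tyrobp, was at 1.51, 0.433, 0.542, 0.649 and 0.653 CPM in Con mice and at 17.3, 23.1 and 35.2 CPM in Ade mice (4.89 ± 0.30, adjusted p = 3.13e-08). Msr1, the class A scavenger receptor for modified lipoproteins, was at 0.404, 0.433, 0.813, 1.04 and 0.392 CPM in Con mice and at 7.03, 14.98 and 18.3 CPM in Ade mice (4.48 ± 0.33, adjusted p = 1.47e-07). The groups of both genes were separate, but both passed the filter on low counts only through the Ade group, so their calls carry little weight. Clec7a, the dectin-1 receptor for fungal glucans, was at 5.35, 4.04, 3.39, 4.55 and 4.96 CPM in Con mice and at 42.7, 75.6 and 85.0 CPM in Ade mice (3.98 ± 0.21, adjusted p = 1.11e-08), also without overlap.

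Nos2, the inducible nitric oxide synthase, was at 1.08 to 2.62 CPM in Con mice and 3.52 to 7.52 CPM in Ade mice (1.76 ± 0.28, adjusted p = 0.000112), and Cd86, a costimulatory ligand for T cells, had a log2 fold change of 2.58 ± 0.20. The call of Nos2 carries little weight, as it passed the filter on low counts only through the Ade group. Retnla, a secreted resistin-like protein, had 0 to 3 counts in Con mice and a median of 4.10 CPM in Ade mice (4.09 ± 0.78, adjusted p = 0.000505), but Ade mouse 207 had 0 counts, so its groups overlapped. Chil3, a chitinase-like protein, was not tested at 0 to 3 counts in Con mice and 3 to 16 in Ade mice, although its values of 0.303, 0.144, 0, 0.13 and 0.131 CPM in Con mice lay below the 0.501, 1.12 and 2.03 CPM of the lowest, median and highest Ade mouse. Marco, a scavenger receptor of alveolar and splenic macrophages, had 0 to 1 counts in both groups.

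The 2 remaining activated markers, Cd14, the co-receptor for lipopolysaccharide, and Lgals3, the lectin galectin-3, had log2 fold changes of 3.29 ± 0.29 and 2.31 ± 0.19. Lgals3 was already at 33.4 to 45.8 CPM in Con mice, against 117 to 269.6 CPM in Ade mice.

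All 6 Fc receptors and adaptors rose. Fcgr1, the high-affinity receptor for immunoglobulin G, was at 1.92, 4.04, 3.39, 1.95 and 2.48 CPM in Con mice and at 19.6, 36.7 and 41.02 CPM in Ade mice (3.65 ± 0.24, adjusted p = 5.93e-08). Fcgr3, a low-affinity activating receptor, was at 5.45, 5.34, 5.96, 4.81 and 6.53 CPM in Con mice and at 41.1, 67.2 and 88.2 CPM in Ade mice (3.63 ± 0.20, adjusted p = 1.43e-08). The lowest Ade mouse was at 4.85 times (Fcgr1) and 6.29 times (Fcgr3) the highest Con mouse.

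The adaptors Tyrobp and Fcer1g, short membrane proteins with an immunoreceptor tyrosine-based activation motif (ITAM) through which the receptors bound to each signal, had close levels. Tyrobp was at 6.46, 5.92, 7.31, 5.33 and 6.40 CPM in Con mice and at 41.4, 67.0 and 84.2 CPM in Ade mice (3.40 ± 0.19, adjusted p = 1.57e-08). Fcer1g was at 6.96, 8.09, 7.31, 6.88 and 10.1 CPM in Con mice and at 47.8, 74.5 and 95.9 CPM in Ade mice (3.24 ± 0.21, adjusted p = 4.82e-08). Fcgr4, an activating receptor, rose less, from 3.63, 2.89, 2.84, 6.23 and 4.05 CPM in Con mice to 14.2, 20.9 and 25.2 CPM in Ade mice (2.37 ± 0.21, adjusted p = 8.84e-07). Fcgr2b, the inhibitory receptor, had the smallest called change of the list (0.67 ± 0.13, adjusted p = 0.000489), with 61.1 to 76.6 CPM in Con mice and 85.7 to 142 CPM in Ade mice. Fcgr3 and Fcgr2b share sequence, as 9.58% and 4.38% of their 50-base words occur in another gene, mostly in each other.

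To set resident and activated markers against the lineage as a whole, the log2 CPM of each tested member was taken minus the mean log2 CPM of the 15 lineage genes in the same mouse (for a lineage gene, of the other 14). This is a description without a test, and the prior count of 2 in the log2 CPM draws the values of genes with few reads together. A difference of 0 between groups then means a change equal to that of the lineage genes. Of the 40 tested members, 9 lay higher in every Ade mouse than in every Con mouse by this measure and 13 lower, whereas of all tested genes 0.274% lay higher and 94.3% lower, since most genes did not share the rise of the lineage genes.

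Resident markers lay on both sides. Fcrls lay 2.33 higher in Ade than Con mice on this log2 scale and Siglec1 0.68 higher, and for both the groups were apart. Folr2 lay 3.61 lower and Cd163 2.43 lower, also without overlap. Mrc1 (-0.36) and Clec10a (-0.41) overlapped. The activated markers were divided too. Gpnmb (3.75), Clec4n (1.41), Trem2 (1.23) and Clec7a (0.50) were higher relative to the lineage genes in every Ade mouse, while Nos2 (-1.72), Lgals3 (-1.12) and Cd86 (-0.92) were lower in every one. The median difference was -0.39 for the 6 resident and -0.11 for the 11 activated members, of which 3 and 7 passed the filter on low counts only through the Ade group. Outside these roles Fcgr2b (-2.74), Csf1r (-2.50), Csf1 (-1.12) and Fcgr4 (-1.05) were lower without overlap. The reference matters: with Csf1r alone in place of the 15 genes the medians were 2.11 and 2.39, since Csf1r itself changed little.

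**Figure D3:**
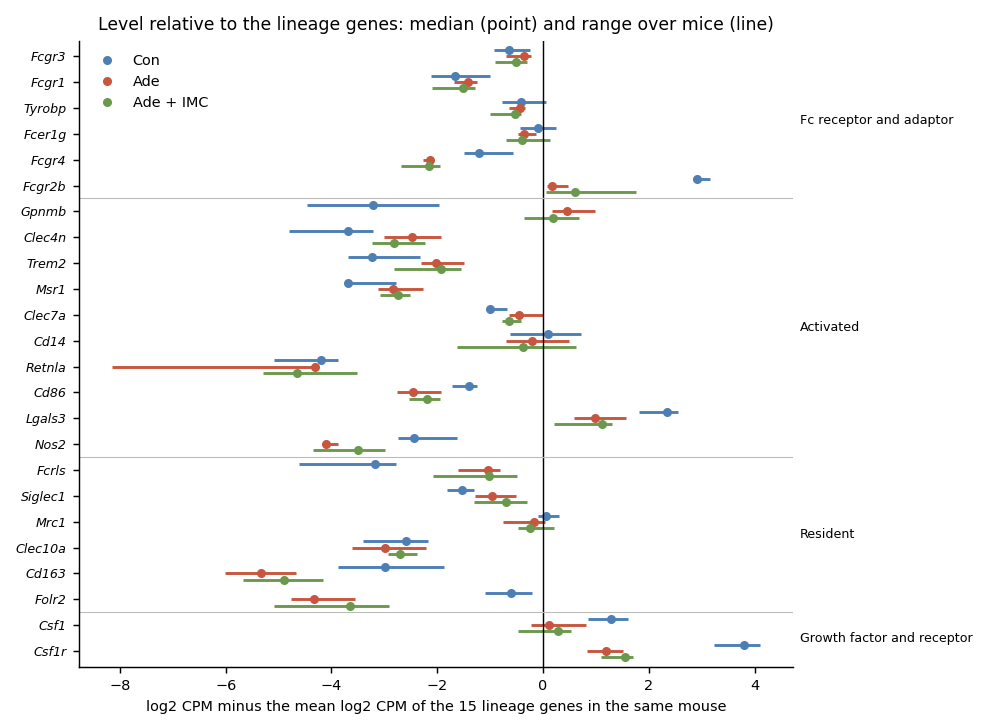
log2 CPM of each member minus the mean log2 CPM of the 15 lineage genes in the same mouse (x axis), for 24 of the 25 tested members of the other roles (y axis), as median (point) and range (line) of the Con (blue), Ade (red) and Ade + IMC (green) mice. Gpnmb and Fcrls lie to the right of their Con values in both adenine-fed groups, and Csf1r, Fcgr2b, Folr2 and Cd163 to the left, while Clec4n and Trem2 are clear of the Con range in the Ade group alone.

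The wider myeloid pathways were read from 4 further lists. All 14 genes of ITAM signalling were called higher in the Ade group (median log2 fold change 2.498), led by Syk, the kinase that binds phosphorylated ITAMs (3.35 ± 0.23), Vav1, an exchange factor for Rac (3.21 ± 0.20), and Btk, a kinase of B cells and myeloid cells (3.16 ± 0.28). Of 5 NADPH oxidase subunits beside Cybb, 4 were called higher, with Ncf1 at 3.56 ± 0.19, Rac2 at 3.41 ± 0.24 and Ncf4 at 3.33 ± 0.28. Cyba, the small membrane subunit of that oxidase, was not called (-0.14 ± 0.13, adjusted p = 0.362). Among the colony-stimulating factors, their receptors and myeloid transcription factors, 14 of 16 were tested, 12 called higher and 2 lower. Runx1, a transcription factor of blood cell development, led at 3.77 ± 0.16, with the receptor chains Csf2rb at 3.57 ± 0.17 and Csf3r at 3.48 ± 0.23, and Il34, the second ligand of Csf1r, was at 3.16 ± 0.23. Of 22 other macrophage and monocyte genes, 20 were tested, 18 called higher and 1 lower, with Fpr1, a receptor for formyl peptides (5.68 ± 0.66), Clec4d, a C-type lectin (5.61 ± 0.43), and Ly6c2, a marker of inflammatory monocytes (3.77 ± 0.61), changing the most. Of the genes tested in these 4 lists, in the same order, 2, 1, 1 and 6 passed the filter only through the Ade group. Btk, Ncf4, Csf3r, Fpr1, Clec4d and Ly6c2 were among them, so their calls carry little weight. The transcription factors called lower by edgeR were Nr1h3 (-0.67 ± 0.15, adjusted p = 0.00164) and Maf (-0.56 ± 0.15, adjusted p = 0.00444). Of the other macrophage and monocyte genes it was Mertk (-0.51 ± 0.11, adjusted p = 0.00113). The Con and Ade values of Nr1h3 and Mertk did not overlap.

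Markers of other cells moved with the same groups. In the Ade group 8 of 8 T cell genes (median log2 fold change 3.52), 7 of 7 B cell genes (4.24), 5 of 5 genes shared by leukocytes (3.17), 8 of 8 dendritic cell genes (2.28) and both tested neutrophil genes of 10 (3.88) were called higher. All 7 B cell genes, 5 of the T cell, 6 of the dendritic cell and both neutrophil genes passed the filter on low counts only through the Ade group, so their counts carry little weight. The 8 proximal tubule genes (-1.90) and the 5 erythrocyte genes (-2.19) were called lower, and of 6 genes of other nephron segments 3 were. The summed level of the 7 B cell genes was 3.53 to 5.55 CPM in Con and 32.8 to 207 CPM in Ade mice, that of the 8 T cell genes 7.72 to 15.7 and 66.7 to 237 CPM, and that of the 15 lineage markers 178 to 226 and 1829.7 to 3140.2 CPM. In Ade + IMC mice the summed levels were 20.6 to 479.6 CPM for B cell, 68.4 to 343 CPM for T cell and 1500.002 to 3161.9 CPM for lineage markers. The part of these shifts in the members' rise was not tested.

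The Ade + IMC and Con groups were compared with the same test, on the raw counts of the Con mice joined to the whole reads recovered from the normalized counts of the Ade + IMC mice. These are the same 5 Con mice as above, so the values are set beside those of the Ade group and are not independent of them. Of 41 members tested, 40 were called higher and 0 lower, against 30.9% of all 14578 tested genes called higher, and the median log2 fold change was 2.94. Every Ade + IMC mouse lay above every Con mouse for 37 of the 45 members, as for 20.5% of all tested genes. Folr2 was again not called (-0.08 ± 0.22, adjusted p = 0.778). Lyve1, with 7 to 35 counts in the Ade + IMC mice, passed the filter on low counts here only through the group in which it was high, and its call (1.83 ± 0.55, adjusted p = 0.0119), with overlapping Con and Ade + IMC values, therefore carries little weight. In all, 12 members passed only in that way, and of the 29 others 28 were called, with a median of 2.87.

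Lineage markers lay between 2.55 (Cybb) and 4.29 (Lyz2) in this comparison, against 2.80 and 4.64 for the same genes in the Ade group. Csf1 was at 1.97 ± 0.14 against 2.304 ± 0.18 and Csf1r at 0.82 ± 0.11 against 0.90 ± 0.13. Among the resident markers, Fcrls was at 5.74 ± 0.33 against 6.12 ± 0.25, Siglec1 at 4.06 ± 0.19 against 4.20 ± 0.15, Mrc1 at 2.78 ± 0.13 against 3.09 ± 0.15, and Cd163 at 1.25 ± 0.42 against 1.02 ± 0.35. Gpnmb, of the activated markers, was at 6.56 ± 0.41 against 7.29 ± 0.37, Clec4n at 4.68 ± 0.42 against 5.38 ± 0.43, Trem2 at 4.51 ± 0.31 against 4.89 ± 0.30 and Nos2 at 2.07 ± 0.41 against 1.76 ± 0.28. Whether the 2 groups differ is the subject of the direct comparison.

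**Figure D4:**
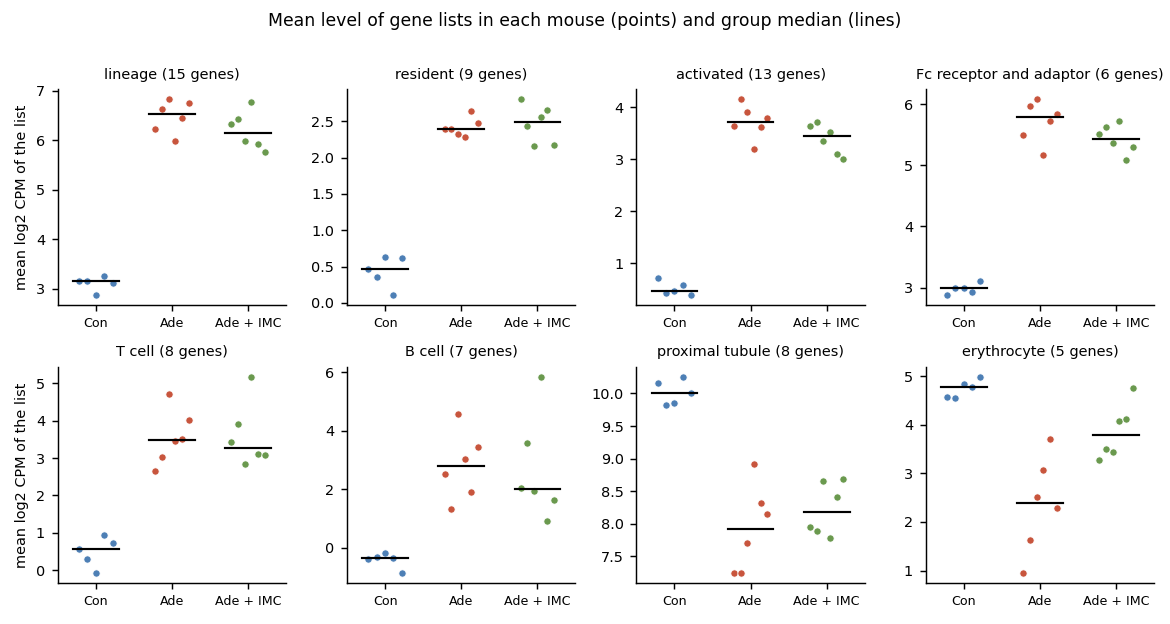
Mean log2 CPM (y axes, each with its own range of values) of 4 role lists of members and of 4 lists of other cell markers in each mouse of the 3 groups (x axes), with a line at each group's median. The 4 role lists and the T and B cell lists are higher in every adenine-fed mouse than in every Con mouse, the proximal tubule list is lower, and the erythrocyte list is lower in all Ade mice, with 1 Ade + IMC mouse among the Con mice.

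The direct comparison, Ade + IMC against Ade, asks whether IMC changes the members' levels during adenine feeding. It used the deposited normalized counts of both groups, on the scale log2(normalized count + 1), which understates changes of genes with few reads. No member was called: 0 of the 41 tested passed an adjusted p of 0.1 by limma (smallest adjusted p = 0.711), as did 0.0% of all 14696 tested genes, and edgeR and DESeq2 on the recovered reads also called 0 members, with 37 genes of the whole table called by DESeq2. The study, by DESeq2 at the same threshold, reported many more genes in both directions for this comparison. Why the counts differ was not tested. The 45 members' values overlapped between the groups without exception, and 0.0953% of all tested genes had every Ade + IMC mouse below every Ade mouse. Of the 41 members, 34 had a lower and 7 a higher mean in the Ade + IMC group, with a median log2 difference of -0.30, where 48.4% of all tested genes were below 0 and their median was 0.01.

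At an unadjusted p below 0.05, 7 members were lower and 1 higher, while 3.35% of all tested genes were lower and 3.37% higher. The 7 were Gpnmb, Itgam, Fcgr4, Clec7a, Fcgr3, Tyrobp and Clec4n, and the 1 was Lyve1. By role, all 15 lineage markers were on the lower side (median -0.29), as were Csf1 (-0.28 ± 0.15) and Csf1r (-0.04 ± 0.11), 9 of 11 activated markers (median -0.37) and 5 of 6 Fc receptors and adaptors (median -0.40). Of 7 resident markers tested, 3 were lower and 4 higher (median 0.05), and without Lyve1, which passed the filter on low values only through the Ade + IMC group, 3 and 3 (median -0.0356). These counts describe the lists, whose genes vary together from mouse to mouse, and were not tested against each other.

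**Figure D5:**
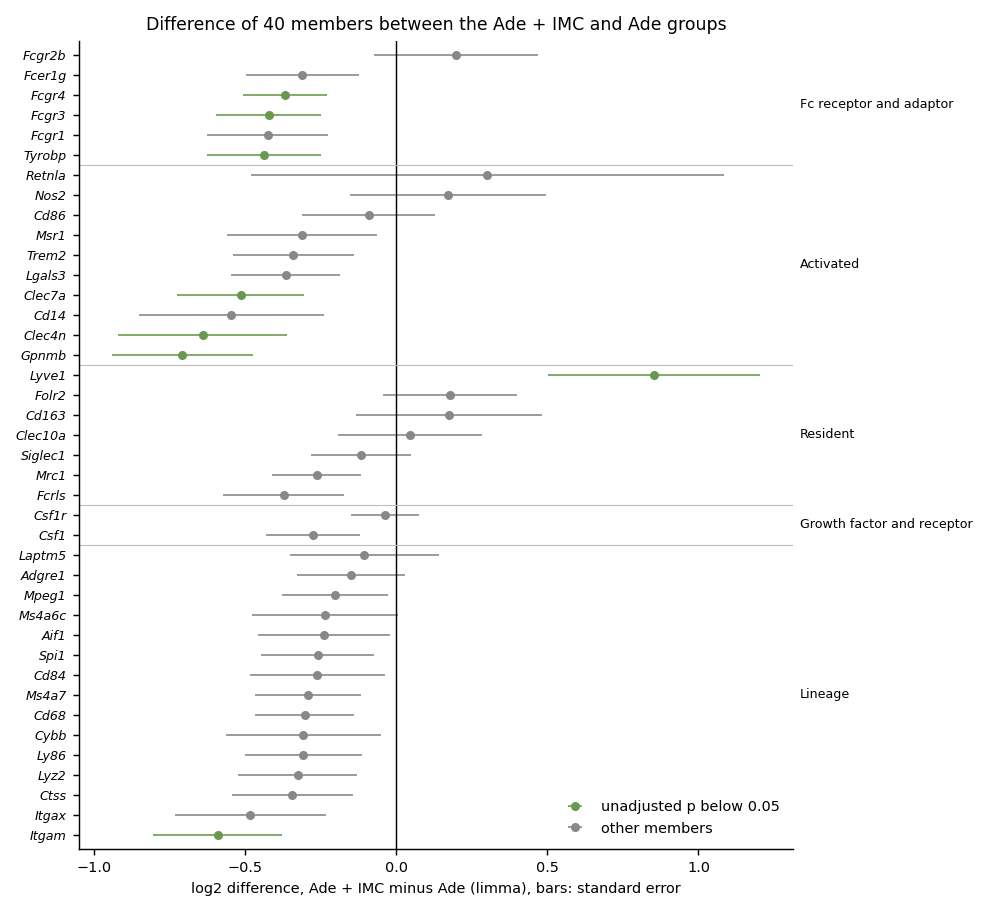
log2 difference of the Ade + IMC and Ade groups (x axis, log2(normalized count + 1), limma) for 40 of the 41 members tested (y axis, by role), with bars for the standard error. Most points lie between -0.7 and 0, the 8 members with an unadjusted p below 0.05 are in green, and Lyve1 lies furthest to the right at 0.85.

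Gpnmb showed the smallest p of the members. It and the members of the next paragraph were picked by their limma p in these same mice. Their permutation p-values are therefore no separate support. Its normalized counts were 595, 980.3 and 1488 in the lowest, median and highest Ade mouse and 330.3, 614 and 965 in the Ade + IMC group (log2 difference -0.71 ± 0.23, limma p = 0.00937, adjusted p = 0.711, two-sided exact permutation p = 0.0303). An exact permutation of the group labels within each leading digit gave p = 0.00556, the smallest it can give. The groups overlapped in that the highest Ade + IMC mouse stood above the lowest Ade mouse.

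Itgam was at 272, 487 and 624 in Ade mice and at 214, 324 and 481 in Ade + IMC mice (-0.59 ± 0.21, limma p = 0.0155, exact permutation p = 0.039, within digits 0.0333). Fcgr4 was at 106, 156 and 190.1 against 93.3, 119 and 130.1 normalized counts (-0.37 ± 0.14, limma p = 0.0196, exact permutation p = 0.0346, within digits 0.0444). Both genes had the medians of the Ade + IMC mice near the lower end of the Ade values. Clec7a was at 318, 564 and 641 against 228, 387 and 477 (-0.51 ± 0.21, limma p = 0.0287, exact permutation p = 0.0606, within digits 0.0111), and Fcgr3 at 306, 499 and 665 against 289.6, 385 and 444 (-0.42 ± 0.17, limma p = 0.0292, exact permutation p = 0.0584, within digits 0.0222). Neither of these last 2 passed 0.05 by the permutation over all mice. The adjusted p of each of the 5 was at least 0.711.

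When that leading digit entered as a block, 1 member, Clec7a, was called lower by limma, as was 0.408% of all tested genes. On the recovered reads with the same block, alternatives chosen after the data were seen, edgeR called Clec7a lower (0.362% of all tested genes). DESeq2 there called 7 members lower, Clec4n, Clec7a, Fcgr3, Gpnmb, Itgam, Itgax and Lgals3, with 1.75% of all tested genes called lower. Mice with a leading 2, 3 and 4 numbered 2, 2 and 1 in the Con, 2, 1 and 3 in the Ade and 2, 2 and 2 in the Ade + IMC group, and these calls stand beside the unblocked result as alternatives.

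Lyve1, the only member at an unadjusted p below 0.05 in the other direction, had normalized counts of 5.03, 7.07 and 11.1 in the lowest, median and highest Ade mouse and 6.20, 14.4 and 29.8 in the Ade + IMC group (0.85 ± 0.35, limma p = 0.0298, adjusted p = 0.715, exact permutation p = 0.0346, within digits 0.0833). Its mean was 7.42 in the Ade and 15.6 in the Ade + IMC group, so that it passed the minimum mean of 10 only through the group in which it was high, and these p-values carry little weight. Lyve1 also marks lymphatic endothelium, and the 4 lymphatic markers with values were each on the higher side in the Ade + IMC group (median 0.35), Prox1, the transcription factor that sets lymphatic identity, with an unadjusted limma p of 0.0224. A higher mean was not particular to lymphatic markers. The 6 genes of other nephron segments were all on the higher side too (median 0.54, 2 of 6 at an unadjusted limma p below 0.05). The part of lymphatic or any other cells in the difference of Lyve1 was not tested.

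In the wider pathways 0 genes were called between the adenine-fed groups. All 14 ITAM signalling genes, all 5 NADPH oxidase subunits, 11 of 14 colony-stimulating factor, receptor and transcription factor genes and 18 of 21 other macrophage and monocyte genes had the lower mean with IMC. Runx1 was lower by limma at an unadjusted p of 0.00186 (-0.48 ± 0.13, adjusted p = 0.643), and Il34 at 0.0118 (-0.62 ± 0.21, adjusted p = 0.711). These were the 2 genes of their list at an unadjusted limma p below 0.05. Of the other macrophage and monocyte genes 1 was higher and 1 lower at that level, and of the ITAM signalling genes 1 was lower.

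The extremes of the adenine-fed groups fell often on the same mice. Mouse 407 had the lowest value of the Ade group for 31 of the 45 members, and mouse 412 the lowest of the Ade + IMC group for 27. Mouse 311 had the highest of the Ade + IMC group for 23 members, and it also had the highest mean level of B cell (5.83 log2 CPM, other mice of the group 0.92 to 3.59) and T cell markers (5.17, others 2.83 to 3.92). Leaving out any 1 of the 12 mice left 0 members called. The erythrocyte markers were on the higher side in the Ade + IMC group (median 1.56, 5 of 5 at an unadjusted p below 0.05), those of the proximal tubule in 6 of 8 cases (median 0.43). Those of other nephron segments were higher in 6 of 6 cases (median 0.54, 2 at that level). The genes shared by leukocytes were lower in 5 of 5 cases (median -0.23) and B cell genes in 6 of 7, while 4 T cell genes were lower and 4 higher. The part of any of these in the members' differences was not tested.

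Relative to the lineage genes in the same mouse, the Ade + IMC and Ade groups overlapped for each of the 40 members given in this way. The differences were -0.41 for Gpnmb, -0.34 for Clec4n, -0.32 for Itgam, -0.25 for Cd14 and -0.22 for Clec7a, and on the other side 0.49 for Fcgr2b, 0.47 for Folr2, 0.46 for Cd163, Nos2 and Retnla, 0.34 for Clec10a and 0.26 for Csf1r.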

How the data were processed

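RNA from the kidneys of 17 mice was analysed: 5 Con, 6 Ade and 6 Ade + IMC animals, each a separate mouse and grouped by the treatment in its labels. The authors deposited raw counts per gene for the Con and Ade mice. They also deposited a table of normalized counts for the Ade and Ade + IMC mice, in which the signal of a gene is its count divided by the DESeq2 size factor of the mouse. Per the labels, the processing notes name Trimmomatic 0.39, FastQC 0.11.8, Bowtie2 2.2.5, HTSeq 0.9.1 and DESeq2, whereas the methods of the study name the STAR aligner and the mm10 build, so the aligner differs between the sources. Which gene models were counted, and whether counting used strand, is not given in the sources used here. Another deposited table paired gene names with Ensembl identifiers, and its log2 fold change, base mean and p-value columns hold the authors' own comparison and were not used.

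Of 233731 normalized values above 0, 100.0% were whole multiples of the worth of 1 read (tolerance 1e-06 reads), and the 0 recovered values that differed from the raw counts in the 6 Ade mice of both tables allowed the recovered reads of the Ade + IMC mice to be used as counts. The smallest chi-square per degree of freedom between 2 libraries of a group was 4.21, so no pair agreed within sampling noise.

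The members and lists were chosen with earlier results of these data known. Ade and Ade + IMC mice were each compared with Con mice by edgeR 4.0.16 (quasi-likelihood test, TMM scaling, filterByExpr) and Ade + IMC with Ade mice by limma 3.58.1 (trend, log2(normalized count + 1), mean normalized count of at least 10), in R 4.3.3. Adjusted p-values (Benjamini-Hochberg) cover all tested genes, a gene was called at an adjusted p below 0.1, and values after ± are standard errors unless named otherwise. Exact permutation tests were two-sided, over 924 assignments of the mice or 180 within leading digits, with smallest possible p of 0.00216 and 0.00556. Values by mouse were given for Csf1, Csf1r, the 4 members of each other role with the largest change between Ade and Con mice, members not tested, not called or opposite in sign, and the 5 with the smallest p between Ade + IMC and Ade mice, with 3 genes of each wider pathway. Others were named after their values were seen, and 1 member is counted but not reported by name here. Alternatives were DESeq2 1.42.0, other scalings, filters, pseudocounts and thresholds, a block for the leading digit, and leaving out each mouse. The fits were also run on simulated counts, as a check of the code. Far fewer genes changed there than were called between Ade and Con mice, so error rates here were not measured. Shared sequence was counted as 50-base words of GENCODE vM21 transcripts found in another gene. Counting error alone is covered by the floors of 3 counts.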

Additional observations from a re-analysis of the deposited data

Results flagged for a closer look

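In 10 of the 135 combinations of a member and a group, 1 mouse stood apart from the rest of its group by Dixon's criterion, where chance gives about 1 in 20, and in 9 of the 10 it was the highest mouse. Mouse 311 of the Ade + IMC group accounted for 3, being at 397 CPM for Laptm5 (the next value was 212 CPM), 250.0004 CPM for Cybb (next value 116 CPM) and 0.567 CPM for Marco (5 counts, next value 0.143 CPM). It also had the highest B and T cell marker levels of its group, and the part of these cells in its values was not tested. Mrc1 had a mouse apart in 2 groups, mouse 202 at 10.3 CPM among the Con mice (next 9.08) and mouse 409 at 111 CPM among the Ade mice (next 78.7). Among the Con mice, Spi1 was at 8.36 CPM in mouse 403 (next 5.33), Trem2 at 1.51 CPM in mouse 201 (15 counts, next 0.653), and Csf1r at 90.7 CPM in mouse 302, the only value set apart at the low end (next 116). The values of Timd4 in Ade + IMC mouse 211 (0.806 CPM, 5 counts, next 0.34) and of Vsig4 in mouse 212 (0.12 CPM, 1 count, others 0) rest on too few reads to be told from counting error.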

How the results depend on the processing

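Between Ade and Con mice 39 members were called, 40 with DESeq2 or without the filter on low counts, both of which added Chil3, and 38 to 39 when each mouse was left out, as Retnla no longer passed the filter. Between Ade + IMC and Con mice 40 were called, against 41 with DESeq2, 42 without the filter, which added Chil3 and Timd4, and 39 to 40 when each mouse was left out. Between Ade + IMC and Ade mice the count of 0 held with edgeR, DESeq2, both pseudocounts, no filter and each mouse left out. It was 8 at an unadjusted p below 0.05, 1 (Clec7a) with the leading digit of the mouse as a block, and, in alternatives chosen after the data were seen, 1 (Clec7a) with edgeR and 7 with DESeq2 under that block (Clec4n, Clec7a, Fcgr3, Gpnmb, Itgam, Itgax and Lgals3, all lower with IMC), where 104 and 591 genes of the whole table were called in either direction. The replicate numbers follow accession order and pair no mice.

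The median level relative to the lineage genes, Ade minus Con, was -0.39 for resident members, 2.11 with Csf1r and 0.0488 with Laptm5 as the reference. For activated members it was -0.11, 2.39 with Csf1r and 0.32 with Laptm5. The log2 fold change of Folr2 between Ade + IMC and Con mice ran from -0.18 to 0.0480 when each mouse was left out, positive without Con mouse 403 or Ade + IMC mouse 311. That of Csf1r between Ade + IMC and Ade mice ran from -0.10 to 0.0174, positive without Ade mouse 408 or 409 or Ade + IMC mouse 412. Neither was called in any of these. The cause was not tested.

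Libraries of 5444833 to 11680809 counts left Vsig4, Timd4 and Marco at 0 to 5 counts, and the call of Timd4 without the filter rests on 0 to 2 counts in Con and 1 to 5 counts in Ade + IMC mice. The fitted folds of genes with under 10 counts in most Con mice depend on few reads. The 4 Con + IMC mice of the labels were not analysed here.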
